A study of Homo sapiens with 2 samples.

Results

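Genes of splicing and RNA processing were examined in HepG2, a human hepatoma cell line, in which TUC338 was knocked down by a transfected locked nucleic acid (LNA), set against cells with a control LNA. A gene was taken when its only listed symbol began with HNRNP, SRSF, SFRS, SF3, SNRP, PRPF, DDX, DHX, RBM, CPSF, CSTF, LSM or MBNL, or was U2AF1 or U2AF2. This gave 49 of the 2795 genes in the table, and U2AF2 was not among them. The groups were HepG2 cells given the TUC338 LNA, with 1 array, and HepG2 cells given the control LNA, with 1 array. Both were grown on collagen, both are 1 established line, and total RNA was hybridised. TUC338 is a noncoding transcript with an ultraconserved element, its host gene is PCBP2, and the design text states that its knockdown had been checked by experiment. TUC338 has no annotated probe set here, so its knockdown could not be checked from the arrays. Whether probe sets of PCBP2 overlap TUC338 was not checked. Each condition had 1 array, which allows no test and no replicate check.

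Splicing removes introns from transcripts through the spliceosome, which assembles from small nuclear RNAs held in rings of Sm and LSm proteins. U2AF marks the end of an intron, the U2 particle with its SF3A and SF3B subunits then binds the branch point, and RNA helicases of the DEAD and DEAH families remodel the complex as it proceeds. SR proteins and hnRNPs bind exons and introns around a splice site and set how often it is used, while the CPSF and CSTF complexes cut the transcript for polyadenylation. Several regulators of splicing are known to limit their own mRNA through alternative exons.

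The exon array carried several probe sets per gene, and a gene value here is the mean over its probe sets. The 49 members had 710 probe sets, 4 to 46 each with a median of 13. Differences are knockdown minus control in log2 intensity. The SD beside a mean is that over the gene's probe sets, which share the same 2 arrays and do not stand for replicate cultures. The knockdown array was brighter as a whole, with a median intensity over all probe sets of 507 against 422 on the control array. The median over genes of the difference was 0.28, or 1.22-fold. Differences are therefore given relative to this median gene unless they are called deposited, and a member up to 0.28 below the median gene was still the brighter on the knockdown array. Intensities depend on each probe, so levels are not compared between genes. The hepatocyte markers in the table, 7 of the 15 listed, had mean log2 intensities of 10.53 to 13.02 on the knockdown array and 9.98 to 12.97 on the control array, all at or above the median gene level. Their summed deposited intensity was 39855 after knockdown and 34050 in the control, not corrected for the brighter knockdown array. The fibroblast genes COL1A1 and PDGFRB were the only 2 of 4 in the table and lay below the median gene level. Their deposited intensities summed to 524 after knockdown and 566 in the control. None of the 4 leukocyte and 4 endothelial markers was in the table. The part of these levels in the results was not tested.

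As a whole the splicing and RNA processing factors lay close to the other genes. Their median difference was -0.057, against 0.00093 over the 2746 genes that were no members, and their SD from gene to gene was 0.30, against 0.31 over all genes. Below the median gene lay 27 of the 49 members (55.1%), where 50% of all genes do by construction. With every gene taken by its brightest probe set instead, 32 of the 49 lay below the median gene. With the median over probe sets, 28 did. In deposited values 14 members (28.6%) were dimmer on the knockdown array, against 17.1% of all genes. HNRNPUL1 was the only member whose mean was at least 1.5-fold below the median gene (1 of 49, 2.04%), where 3.97% of all genes were. No member was at least 1.5-fold above it, where 2.25% of all genes were. Differences of that size were thus no more common among these factors than in the table. At 1.25-fold, a size added after the values were seen, 12 members (24.5%) lay lower and 7 (14.3%) higher, against 14.6% and 11.6% of all genes. In deposited values 7 members (14.3%) were at least 1.5-fold higher, against 13% of all genes, namely CSTF2, DDX10, DHX29, LSM12, MBNL1, RBM47 and RBMX2. None was 1.5-fold lower there, against 0.966% of all genes, so these shares were also near those of the table.

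**Figure D1:**
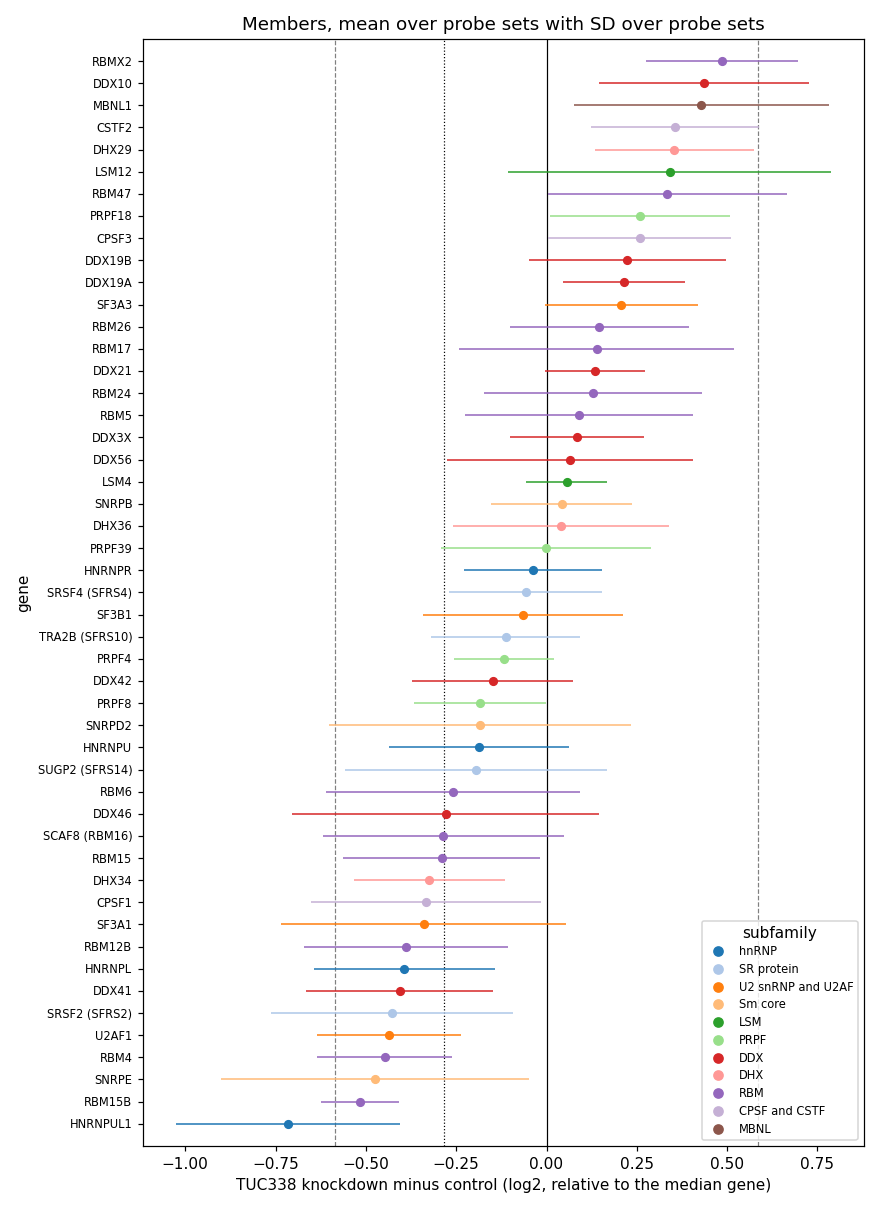
Knockdown minus control for each of the 49 members (log2, relative to the median gene), as the mean over probe sets with the SD over probe sets as a bar, coloured by subfamily. The solid line is the median gene, the dotted line equal deposited intensity on both arrays, and the dashed lines 1.5-fold. The means run from -0.72 for HNRNPUL1, the only one outside the dashed lines, to 0.49 for RBMX2.

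By the mean over probe sets, the ends of the range were held by HNRNPUL1 and RBM15B on the low side and RBMX2 and DDX10 on the high side. The order depends on the summary. By brightest probe sets SNRPE at -0.77, DDX46 at -0.68, DHX36 at -0.58 and RBM12B at -0.50 were lower than HNRNPUL1 and RBM15B. MBNL1 at 0.85 and RBM26 at 0.64 were then higher than RBMX2 and DDX10. HNRNPUL1, an hnRNP U-like protein also linked to the DNA damage response, had a mean log2 intensity of 9.16 after knockdown and 9.60 in the control. Relative to the median gene this is -0.72 ± 0.31 over 21 probe sets, or 1.64-fold lower, with 20 of its 21 probe sets below the median gene, and 58 of the 2795 genes lay as low or lower. In deposited values its difference was -0.43. With every gene taken by its brightest probe set instead, HNRNPUL1 lay at -0.49 and did not pass 1.5-fold. RBM15B, an adaptor of the m6A methyltransferase, had 8.49 after knockdown and 8.73 in the control. Its 4 probe sets lay close together, from -0.64 to -0.42, with a mean of -0.52 ± 0.11.

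RBMX2, a subunit of the retention and splicing complex, had 8.99 after knockdown and 8.22 in the control. All 7 of its probe sets lay above the median gene, between 0.24 and 0.85, with a mean of 0.49 ± 0.21, or 1.40-fold higher, and 109 of the 2795 genes lay as high or higher. DDX10, a DEAD-box helicase of ribosome assembly, had 8.91 after knockdown and 8.19 in the control, or 0.44 ± 0.29 with 16 of 17 probe sets above the median gene. In the plot of levels on each array, the 6 lowest members were dimmer and the 6 highest brighter on the knockdown array in deposited values too.

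**Figure D2:**
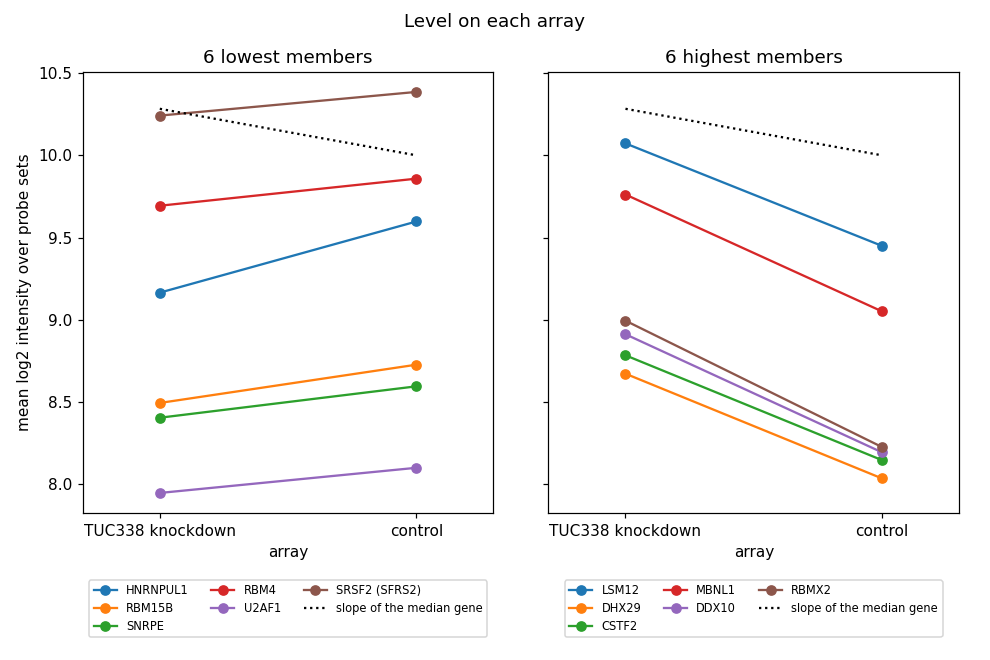
Mean log2 intensity over probe sets after TUC338 knockdown and in the control, for the 6 lowest members (left panel) and the 6 highest (right panel), 1 line per gene. The dotted line shows only the slope of the median gene, a difference of 0.28. All 6 lowest members run against that slope and all 6 highest run along it more steeply.

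The promoters of these 4 genes are shown because they lie at the ends of the range by the mean over probe sets and their windows overlap no other gene of the RefSeq table. Each is the 250 bases before the most upstream RefSeq start (HNRNPUL1 has further starts downstream), 5′ to 3′ on the plus strand, in GRCh38.p14. They lie at chr19:41262307-41262556 for HNRNPUL1, chr3:51391035-51391284 for RBM15B, chrX:130401737-130401986 for RBMX2 and chr11:108664819-108665068 for DDX10. Capitals mark matches on either strand to motifs of ETS factors, NRF1, Sp1 and YY1 and to the CRE, E-box, CCAAT box and TATA box, whose letters are given with their counts, and overlapping or adjoining matches run together.
HNRNPUL1: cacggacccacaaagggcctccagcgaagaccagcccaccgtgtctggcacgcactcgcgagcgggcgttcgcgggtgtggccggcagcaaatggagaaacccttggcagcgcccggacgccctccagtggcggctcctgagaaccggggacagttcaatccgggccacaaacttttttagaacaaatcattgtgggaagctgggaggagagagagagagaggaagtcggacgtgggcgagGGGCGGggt
RBM15B: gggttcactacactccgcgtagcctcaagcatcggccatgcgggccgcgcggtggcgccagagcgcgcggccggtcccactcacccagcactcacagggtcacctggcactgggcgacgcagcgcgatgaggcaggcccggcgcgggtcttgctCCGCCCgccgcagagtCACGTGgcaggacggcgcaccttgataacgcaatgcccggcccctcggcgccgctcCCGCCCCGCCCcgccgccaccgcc
RBMX2: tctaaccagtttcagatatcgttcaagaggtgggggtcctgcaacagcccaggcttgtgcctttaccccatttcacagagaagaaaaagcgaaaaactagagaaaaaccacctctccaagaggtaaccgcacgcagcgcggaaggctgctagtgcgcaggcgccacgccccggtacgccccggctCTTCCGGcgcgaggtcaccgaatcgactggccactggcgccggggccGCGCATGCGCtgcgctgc
DDX10: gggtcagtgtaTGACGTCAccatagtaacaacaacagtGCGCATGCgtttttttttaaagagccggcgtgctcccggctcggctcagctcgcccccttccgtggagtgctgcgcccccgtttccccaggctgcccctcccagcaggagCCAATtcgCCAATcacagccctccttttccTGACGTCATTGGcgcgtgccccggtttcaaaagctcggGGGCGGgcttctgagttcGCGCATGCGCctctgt

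The HNRNPUL1 window held 1 match, an Sp1 box whose leftmost base is at -9, counted with -1 as the last base before the start, and had 63.6% GC. That of RBM15B held 3 Sp1 boxes and an E-box and had 74.8% GC. Both windows of the high members had 61.2% GC and, close to the start, a palindrome that matches the NRF1 core on both strands. Of the 45 members with a promoter entry only 3 held the NRF1 core, 1 below the median gene and 2 above. The RBMX2 window also held an ETS match. The DDX10 window held 9 matches, among them 2 CRE matches, 3 CCAAT boxes and a further NRF1 core, and 1 of the CCAAT boxes overlaps a CRE.

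By role, the genes that bind pre-mRNA as hnRNPs or SR proteins and those of the U2 particle and Sm ring had medians below the median gene. The medians were -0.29 for the 4 hnRNPs, -0.15 for the 4 SR proteins, -0.20 for the 4 genes of the U2 particle and U2AF and -0.18 for the 3 Sm proteins. They were -0.060 for the 4 PRPF genes and -0.084 for the 12 RBM genes. Above the median gene lay the medians of the 9 DDX genes at 0.085, the 3 DHX genes at 0.040, the 2 LSM genes at 0.20 and the 3 CPSF and CSTF genes at 0.26. In deposited values the hnRNP median was -0.0069 and those of the 10 other subfamilies were above 0, so the place of the SR protein, U2, Sm, PRPF and RBM medians below 0 holds only relative to the median gene. Over the other settings that centre on the median gene, the hnRNP median ranged from -0.31 to -0.17, that of the SR proteins from -0.21 to -0.13, that of the U2 genes from -0.36 to -0.078 and that of the Sm proteins from -0.36 to -0.086. The medians of the RBM, DDX, DHX, LSM, and CPSF and CSTF genes were above the median gene under some of those settings and below it under others.

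**Figure D3:**
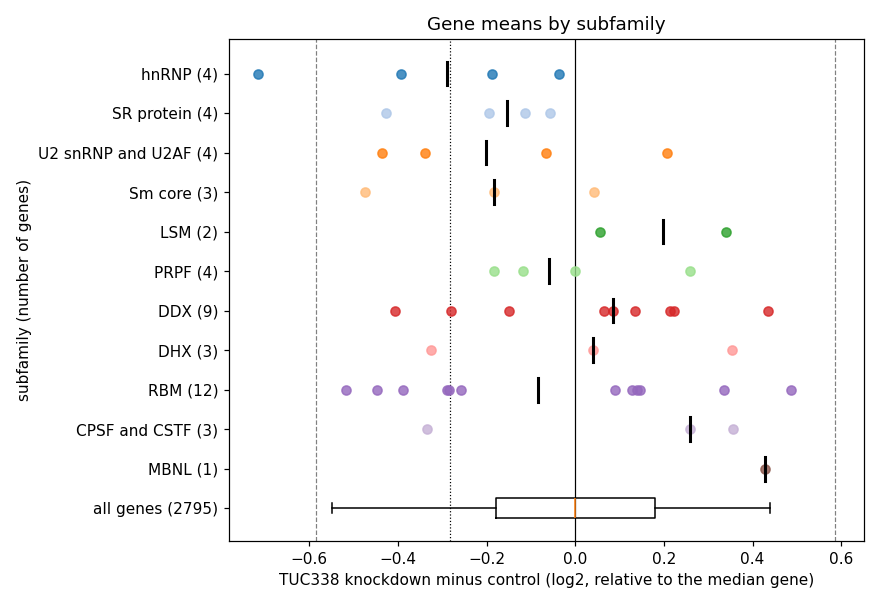
Gene means by subfamily (log2 difference, knockdown minus control, relative to the median gene), 1 point per gene, with the subfamily median as a black bar and the number of genes in brackets. The box for all 2795 genes spans the quartiles, -0.18 to 0.18, with whiskers at the 5th and 95th percentiles, and dotted and dashed lines mark equal deposited intensity and 1.5-fold. The hnRNP and SR protein points all lie below the median gene, and the DDX and RBM points lie on both sides.

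Beside HNRNPUL1, the hnRNPs among the members were HNRNPL, HNRNPU and HNRNPR, and all 4 lay below the median gene. In deposited values HNRNPUL1 and HNRNPL were dimmer on the knockdown array, and HNRNPU and HNRNPR were brighter. HNRNPL, which binds CA repeats and can repress or activate exons, had 9.94 after knockdown and 10.05 in the control. Its difference was -0.39 ± 0.25, with 9 of its 10 probe sets below the median gene. HNRNPU, the scaffold attachment factor, had 10.77 after knockdown and 10.68 in the control, so that its -0.19 ± 0.25 over 22 probe sets corresponds to a higher deposited level. HNRNPR lay next to the median gene at -0.037 ± 0.19 over 14 probe sets, with 8 below and 6 above, and at 0.095 by brightest probe sets. The related HNRNPU and HNRNPUL1 differed by 0.53.

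All 4 SR-type genes lay below the median gene, but only SRSF2 was dimmer on the knockdown array. SRSF2 (listed as SFRS2), the protein known as SC35 that binds exonic enhancers, had 10.24 after knockdown and 10.39 in the control. Its difference was -0.43 ± 0.34, with 11 of its 12 probe sets below the median gene and single values from -1.09 to 0.22. SUGP2 (listed as SFRS14), an SR-related G-patch protein, lay at -0.20 ± 0.36 over 12 probe sets. TRA2B (listed as SFRS10), which activates exons through GAA-rich enhancers, lay at -0.11 ± 0.21 over 14 probe sets. SRSF4 (listed as SFRS4) had 10.50 after knockdown and 10.28 in the control and lay at -0.057 ± 0.21, with 5 of its 9 probe sets below the median gene.

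The genes that recognise the branch point and the intron end were split, 3 below the median gene and 1 above. U2AF1, which reads the AG at the end of the intron, had 7.95 after knockdown and 8.10 in the control. All 8 of its probe sets lay below the median gene, from -0.73 to -0.15, with a mean of -0.44 ± 0.20. Whether the probe sets of U2AF1 also match other sequences was not checked. SF3A1 and SF3A3 are subunits of the same SF3A complex and lay apart. SF3A1 had 9.03 after knockdown and 9.08 in the control, or -0.34 ± 0.39 with 13 of its 15 probe sets below the median gene. SF3A3 had 9.98 after knockdown and 9.48 in the control, or 0.21 ± 0.21 with 16 of 17 probe sets above it. SF3A1 minus SF3A3 was -0.55. SF3B1, the SF3B subunit at the branch point, had 10.91 after knockdown and 10.69 in the control and lay at -0.065 ± 0.28, with 17 of its 29 probe sets below the median gene and 12 above. By brightest probe sets SF3B1 lay lower, at -0.38, and SF3A1 minus SF3B1 was -0.032, against -0.27 by the means.

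Among the 3 Sm proteins, SNRPE had 8.40 after knockdown and 8.59 in the control, or -0.47 ± 0.43 with 5 of its 6 probe sets below the median gene. SNRPE has processed pseudogenes, whose signal the probes may share. SNRPD2 lay at -0.18 ± 0.42, with 4 probe sets below the median gene and 3 above. SNRPB had 10.11 after knockdown and 9.79 in the control and lay at 0.042 ± 0.20, but at -0.19 by brightest probe sets, so all 3 Sm genes were then below the median gene. SNRPE minus SNRPB was -0.52, although both serve in 1 ring. Of the LSM genes, LSM4, a subunit of the LSm rings of U6 and of mRNA decay, lay at 0.055 ± 0.11 with 4 of 5 probe sets above the median gene. LSM12, a protein with an Sm-like domain, had 10.07 after knockdown and 9.45 in the control, or 0.34 ± 0.45. Its 6 probe sets ranged from -0.28 to 0.92, and the lowest of these was also the brightest. By brightest probe sets LSM12 lay at -0.20.

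The PRPF genes act in the tri-snRNP, the U1 particle and the catalytic steps. PRPF8, the scaffold at the centre of the spliceosome, had 10.58 after knockdown and 10.48 in the control. Its difference of -0.18 ± 0.18 came from 46 probe sets, of which 38 lay below the median gene, and none lay beyond -0.51 or 0.25. PRPF4, of the U4/U6 particle, lay at -0.12 ± 0.14 over 10 probe sets. PRPF39, linked to the U1 particle, lay at -0.0016 ± 0.29 over 14. PRPF18, which acts at the second step of splicing, had 8.01 after knockdown and 7.46 in the control, or 0.26 ± 0.25 with 9 of 10 probe sets above the median gene.

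Of the DEAD-box helicases, 3 lay below the median gene and 6 above. The 3 below, DDX41, DDX46 and DDX42, are known from the spliceosome. DDX41, also studied as a nucleic acid sensor, had 9.33 after knockdown and 9.45 in the control, or -0.41 ± 0.26 with 15 of its 16 probe sets below the median gene. DDX46, the human counterpart of yeast Prp5, had 8.17 on both arrays and lay at -0.28 ± 0.42 over 18 probe sets. DDX42, which associates with the U2 particle, had 10.15 after knockdown and 10.02 in the control and lay at -0.15 ± 0.22 over 18 probe sets. The 6 above serve ribosome assembly, mRNA export or translation. The planned grouping was by symbol only, so this sorting of the DDX genes by role was not planned. Beside DDX10, the ribosome assembly helicases DDX21 and DDX56 lay at 0.13 ± 0.14 over 17 probe sets and at 0.065 ± 0.34 over 12. DDX19A and DDX19B, helicases of mRNA export at the nuclear pore, lay at 0.21 ± 0.17 and 0.22 ± 0.27, a difference between them of -0.0091, and such close paralogs can share signal. By brightest probe sets DDX19A lay at 0.15 and DDX19B at -0.074. DDX56 was then at -0.0087. DDX3X, a helicase of translation, had 11.40 after knockdown and 11.03 in the control, or 0.085 ± 0.18 with 13 of 20 probe sets above the median gene.

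The DEAH-box helicases were 3 in number. DHX29, which helps ribosomes scan structured leaders, had 8.67 after knockdown and 8.03 in the control, or 0.35 ± 0.22 with 22 of 23 probe sets above the median gene. DHX36, which unwinds G-quadruplexes, lay at 0.040 ± 0.30 with 13 of its 26 probe sets on each side, and at -0.58 by brightest probe sets. DHX34, a helicase of nonsense-mediated decay, had 8.0 after knockdown and 8.04 in the control. All 12 of its probe sets lay below the median gene, from -0.61 to -0.0089, with a mean of -0.32 ± 0.21.

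The RBM genes, grouped only by name for an RNA-binding motif, split into 6 below and 6 above the median gene. RBM15, the paralog of RBM15B, had 8.59 on both arrays and lay at -0.29 ± 0.27 with 9 of its 10 probe sets below the median gene, and RBM15 minus RBM15B was 0.23. RBM4, a regulator of alternative exons with a close paralog, had 9.69 after knockdown and 9.86 in the control. All 6 of its probe sets lay below the median gene, with a mean of -0.45 ± 0.19. RBM12B had 8.20 after knockdown and 8.31 in the control, or -0.39 ± 0.28 with 7 of its 8 probe sets below the median gene. SCAF8 (listed as RBM16), which binds the tail of RNA polymerase II, lay at -0.29 ± 0.33 over 18 probe sets. By brightest probe sets SCAF8 lay next to the median gene, at -0.024. RBM6 and RBM5, neighbouring genes of related splicing regulators, lay at -0.26 ± 0.35 over 20 probe sets and at 0.091 ± 0.32 over 23, and RBM5 minus RBM6 was 0.35 by the means and 0.65 by brightest probe sets.

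On the high side, RBM47, a cofactor of apolipoprotein B mRNA editing, had 9.27 after knockdown and 8.65 in the control, or 0.33 ± 0.33 with all 6 probe sets above the median gene. RBM24, a splicing regulator of muscle, lay at 0.13 ± 0.30 over 9 probe sets. RBM17, the splicing factor SPF45, lay at 0.14 ± 0.38 over 15, and RBM26 at 0.15 ± 0.25 over 21. RBM47 and RBMX2 were the 2 members (4.08%) with every probe set above the median gene, against 7.33% of all genes with at least 4 probe sets. RBM15B, RBM4, U2AF1 and DHX34 were the 4 members (8.16%) with every probe set below it, against 9.04% of those genes. Agreement over all probe sets was thus no more common in the members than in the table.

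In cleavage and polyadenylation, subunits of CPSF lay apart. CPSF3, the endonuclease that cuts the transcript, had 9.73 after knockdown and 9.19 in the control, or 0.26 ± 0.25 with 12 of 15 probe sets above the median gene. By brightest probe sets it lay at -0.062. CPSF1, the large subunit, had 8.88 after knockdown and 8.93 in the control, or -0.33 ± 0.32 with 26 of its 29 probe sets below the median gene. CPSF1 minus CPSF3 was -0.59 by the means and -0.27 by brightest probe sets. CSTF2, which binds the GU-rich element after the cut, had 8.78 after knockdown and 8.15 in the control, or 0.35 ± 0.23 with 12 of 13 probe sets above the median gene. MBNL1, the muscleblind splicing regulator that is sequestered in myotonic dystrophy, had 9.76 after knockdown and 9.05 in the control. Its difference was 0.43 ± 0.35, with 12 of 13 probe sets above the median gene.

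Within genes, a single probe set departed at least 2-fold from the mean of the gene's other probe sets in 4 of the 47 members with at least 6 probe sets (8.51%), against 4.34% of all 2444 genes with as many. The median over genes of the largest departure was 0.59 in members and 0.58 in all genes. In MBNL1, probe set 2648175 lay at -0.58, where the other 12 ran from 0.20 to 0.85 with a mean of 0.51. It had a log2 intensity of 7.71 after knockdown and 8.0 in the control, dimmer than the others' mean level of 9.53. In DDX46, probe set 2829524 lay at -1.27, with 8.50 after knockdown and 9.48 in the control, where the other 17 averaged -0.22. In SF3A1, probe set 3957271 lay at -1.30, with 6.95 after knockdown and 7.96 in the control, where the other 14 averaged -0.27. RBM6 departed upward, with probe set 2622414 at 0.70, or 10.13 after knockdown and 9.15 in the control, where the other 19 averaged -0.31. The next in size was probe set 2375890 of SNRPE at 0.28, with 7.10 after knockdown and 6.53 in the control, where the other 5 averaged -0.63. Those of SF3A1 and SNRPE were dimmer than their genes' others, at mean levels of 7.45 against 9.17 and 6.82 against 8.84. Those of DDX46 and RBM6 were brighter, at 8.99 against 8.12 and 9.64 against 8.70. These departures compare single exons or parts of exons on 2 arrays, and the exons were not placed because no source used here gives the build of the probe sets.

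**Figure D4:**
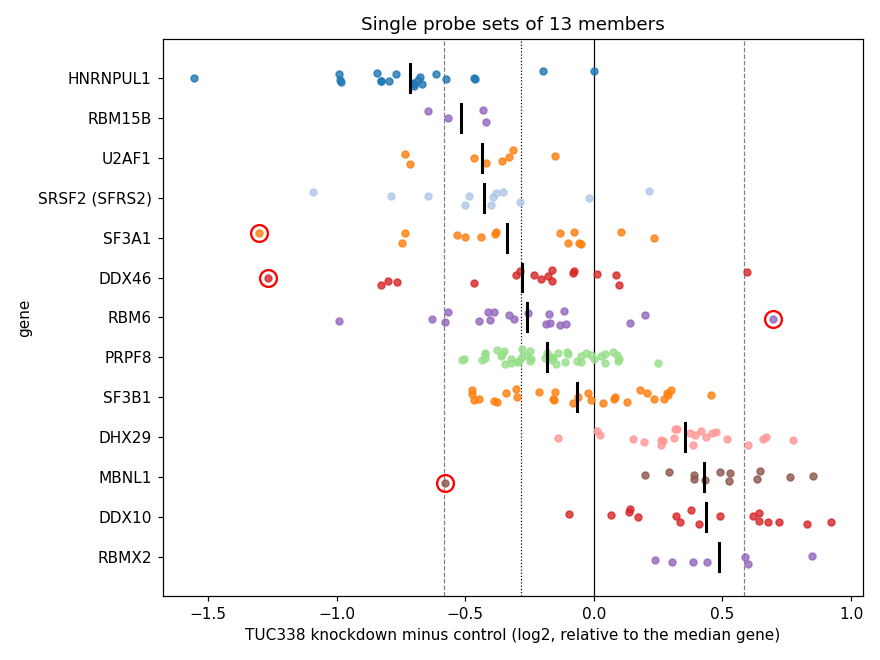
Single probe sets of 13 members (log2 difference, knockdown minus control, relative to the median gene), 1 point per probe set with vertical scatter for display only and the gene mean as a black bar. Red circles mark the 4 probe sets that departed at least 2-fold from the rest of their gene, in SF3A1, DDX46, RBM6 and MBNL1. The solid, dotted and dashed lines mark the median gene, equal deposited intensity and 1.5-fold.

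Other genes of RNA processing, from 7 lists of genes outside the families above, were also measured. Of 68 such genes in the table, 35 lay below and 32 above it, with a median of -0.015, and 1 was past 1.5-fold in each direction, against 2.25% of all genes higher and 3.97% lower. The lower was PCBP2, the host gene of TUC338 and itself known as hnRNP E2, which had 10.10 after knockdown and 10.71 in the control, or -0.89 ± 0.35 over 13 probe sets. These probe sets may also read TUC338, which was not checked. The higher was DCP1A, a factor of mRNA decapping, which had 8.59 after knockdown and 7.54 in the control, or 0.77 ± 0.20 with all 9 probe sets above the median gene. Of the 13 splicing regulators, PCBP2 included, 10 lay below the median gene, with a list median of -0.15. The 20 other spliceosome proteins had a median of -0.025, with 11 below and 9 above. The 18 mRNA decay genes had a median of 0.065, with 6 below and 11 above. The 7 cleavage and polyadenylation genes had a median of 0.078, the 5 genes of the exon junction complex and mRNA export -0.066, and the 4 kinases and phosphatases of SR proteins -0.010. The survival of motor neuron list had 1 gene in the table, at 0.51.

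Gene length and gene neighbourhood, which the choice of members did not use, were read from RefSeq gene models and had unlike medians in the highest and lowest members. The 12 highest members had a median gene length of 47.5 kb, and the 12 lowest one of 15.3 kb. The ranges overlapped, from 11.7 to 275.9 kb in the highest and from 3.30 to 45.2 kb in the lowest. The median length was 30.1 kb over all members and 42.3 kb over all genes with a gene model. The median number of protein-coding genes within 500 kb on either side was 10 for the 12 highest, from 2 to 25, and 20 for the 12 lowest, from 4 to 46. It was 13 over all members and 11 over all genes with a gene model, so the 12 highest lay near the table in both properties. Across the 49 members the difference correlated with log2 gene length at a Pearson r of 0.42 and a Spearman rho of 0.40, where r was 0.040 across the 2780 genes of the table with a gene model. With log2 of 1 plus the number of neighbours, r was -0.41 and rho -0.40 across members, and r was -0.14 across those genes. With promoter GC content r was -0.27 across the 45 members with a promoter entry and -0.15 across 2375 genes, and with mean level it was -0.015 across members. The genes share 1 pair of arrays and are not independent, so these values are descriptions. The part of gene length, neighbourhood and GC content in the differences was not tested. After a straight-line trend on all 3, fitted over 2375 genes, was taken out, the median of the 45 members was -0.059 and HNRNPUL1 was again the only one past 1.5-fold.

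**Figure D5:**
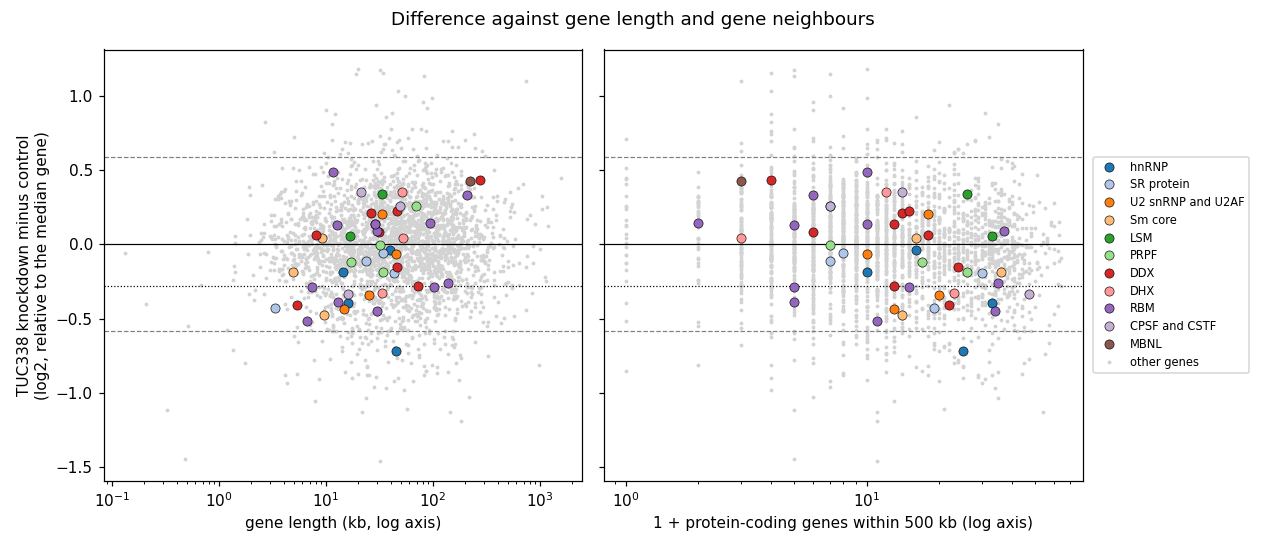
Log2 difference (knockdown minus control, relative to the median gene) against gene length in kb (left panel, log axis) and against 1 plus the number of protein-coding genes within 500 kb (right panel, log axis), for the members, coloured by subfamily, and for the other genes in grey. Among the members r was 0.42 with log2 length and -0.41 with log2 of 1 plus the number of neighbours. The solid, dotted and dashed lines mark the median gene, equal deposited intensity and 1.5-fold.

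Motifs were searched on both strands of the 250 bases before the start in the 45 members with a RefSeq promoter, the windows shown above among them. Of these 45 members 23 lay below the median gene and 22 above. The ETS motif CCGGAAG was present in 16 members (35.6%), against 8.78% of all 27305 promoters and 18.3% of those of 2372 genes of the table. Of these members 7 lay below and 9 above the median gene. The Sp1 box GGGCGG was present in 23 (51.1%), against 42.2% of all promoters and 68.8% of those of the table, and 15 of these members lay below the median gene and 8 above. The E-box CACGTG was present in 5 (11.1%), against 6.46% of all promoters and 10.1% of those of the table, and all 5 members lay below the median gene. The CRE palindrome TGACGTCA was present in 3 (6.67%), against 1.75% of all promoters and 2.87% of those of the table, and all 3 members lay above the median gene. The NRF1 core, searched as GCGCATGC, was likewise present in 3 (6.67%), against 2.83% of all promoters and 5.06% of those of the table. Of these 3 members, 1 lay below the median gene and 2 above. The CCAAT box, searched by those letters, was present in 18 (40%), against 33.0% of all promoters and 34.3% of those of the table. Among these members 10 lay below the median gene and 8 above. The YY1 motif AAGATGG was present in 1 member (2.22%), which lay below the median gene, against 3.77% of all promoters and 3.37% of those of the table. The TATA box TATAAA was present in 2 (4.44%), against 11.2% of all promoters but 4.43% of those of the table. These 2 members lay above the median gene. How genes with each motif split around the median gene over the whole table was not counted, and several of these counts are small. Motif matches can overlap one another and describe letters only, and no binding was measured.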

How the data were processed

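Total RNA of HepG2 cells was amplified, labelled with biotin and hybridised to an Affymetrix human exon array, per the labels' protocols, 1 array for the TUC338 knockdown and 1 for the control. The authors deposited 1 value per array for 45200 probe sets as natural log intensity. No source used here names their normalization, software or genome build. The natural log scale was settled from the values: their exponentials pile up on multiples of 0.5 (1154 values in the fullest residue bin, mean 82.7, on the knockdown array, and 1167 against 84.2 on the control array). Values were divided by the natural log of 2. GEO's platform annotation gave 1 symbol for 42575 probe sets, several for 1055 and none for 1570. Only those with 1 symbol were used. RefSeq (GRCh38.p14) matched 2780 of 2795 symbols and gave promoters for 45 members.

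Each gene was given the mean over its probe sets of knockdown minus control, relative to the median gene, and was counted at 1.5-fold. With 1 array per condition there is no test and no p-value, and the number of arrays limits the precision. Named members are those past 1.5-fold, the extremes and the brightest of each subfamily, the 12 highest and 12 lowest and PCBP2, with genes of other lists past 1.5-fold and the 5 largest departures of a probe set. The other members were named after their values were seen, to account for all 49. Members and lists were chosen with earlier results of these data known. Alternatives were other summaries of a gene, centring, normalization, filters and fold sizes. The procedure was tested on simulated data. Computations used Python 3.11.15, numpy 2.4.6, pandas 2.3.3, scipy 1.17.1, statsmodels 0.14.6 and matplotlib 3.10.9.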

Additional observations from a re-analysis of the deposited data

How the results depend on the processing

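No paired analysis was possible because each condition had 1 array, and for the same reason no replicate could be left out. Over the settings that centre on the median gene, the median of the members lay between -0.092 and -0.020. In deposited values it was 0.23, with 7 members at least 1.5-fold higher and 0 lower, against 13% and 0.966% of all genes, and the subfamily medians were -0.0069 for hnRNPs, 0.13 for SR proteins, 0.081 for U2 and U2AF, 0.099 for Sm, 0.48 for LSM, 0.22 for PRPF, 0.37 for DDX, 0.32 for DHX, 0.20 for RBM, 0.54 for CPSF and CSTF and 0.71 for MBNL1. That shift is the difference of the median gene. With the brightest probe set of each gene, 2 members were higher (MBNL1, RBM26) and 2 lower (DDX46, SNRPE), against 5.19% and 7.01% of all genes, HNRNPUL1 no longer passed at -0.49, and medians were -0.42 for DHX, -0.062 for CPSF and CSTF and 0.85 for MBNL1. The median over probe sets gave 2 lower members (HNRNPUL1, SNRPE), against 4.54% of all genes, and the brighter probe sets alone gave 3 (DDX46, HNRNPUL1, SNRPE) of 47 members left, against 5.58%. The brighter genes alone left 29 members and no DHX gene, and gave -0.053 for CPSF and CSTF, where fewer genes remain. At 2-fold 0 members were lower. Of the alternatives chosen after seeing the data, 1.25-fold gave 7 higher and 12 lower, and current symbols (48 members) and the trend on gene properties kept HNRNPUL1 as the only member past 1.5-fold. Beyond the changes given here, the causes were not tested. In 96 other comparisons medians moved by less than the pooled SD over probe sets of 0.28, and counts by no more than 1.5 times. Probe signal over background is not known.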

Other observations

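Some splicing factors lay outside the counts because their probe sets carry several symbols or an older one. Probe sets shared by SNRPN, a tissue-specific Sm protein, and SNURF had a mean log2 intensity of 9.58 after knockdown and 9.14 in the control, or 0.16 ± 0.13 relative to the median gene (SD over 12 probe sets). Probe sets shared by HNRNPA1, an abundant hnRNP that represses exons, and a related copy lay at -0.29 ± 0.093 over 3 probe sets, with 11.65 after knockdown and 11.66 in the control. Those shared by RBM12 and CPNE1 lay at -0.14 ± 0.22 over 14 probe sets listed in that order and at -0.22 ± 0.27 over 3 listed in the other. The 3 probe sets shared by RBM5 and RBM6 lay at 0.16 ± 0.067, above the mean of RBM5 at 0.091 and that of RBM6 at -0.26. The pair of probe sets shared by RBMX and CCBL2 lay at -0.097 ± 0.42. SRSF10 (listed as FUSIP1), an SR protein that can repress splicing, lay at -0.048 ± 0.19 over 11 probe sets, and HNRNPDL (listed as HNRPDL) at -0.084 ± 0.23 over 15. In deposited values both of these genes were brighter on the knockdown array, with 9.50 for SRSF10 after knockdown and 9.27 in the control, and 9.66 for HNRNPDL after knockdown and 9.46 in the control.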
